A study of Bos taurus with 90 samples.

Results

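The microRNA (miRNA) profile of the liver was set against that of the small intestine epithelium in dairy cows. The 54 samples were those whose tissue label was liver (18 samples), duodenum epithelium (18 samples) or jejunum epithelium (18 samples), out of 90 samples in the series. All came from 18 Chinese Holstein cows in mid-lactation, from which every tissue was taken at slaughter, and each tissue held 6 samples from cows fed a diet based on alfalfa hay, 6 from cows fed corn stover and 6 from cows fed rice straw. No age, genotype or cow identity is attached to a sample in the labels, so the 2 intestinal segments of a cow, which are not independent, could not be joined with certainty. The test used the 304 miRNAs that the deposited tables list in all 3 tissues, out of 365 listed in any of them, and the other 61 are described apart.

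A miRNA is a short RNA that is cut from a hairpin precursor and guides a silencing protein to messenger RNAs that pair with its first bases. The 2 strands of a hairpin give the -5p and -3p forms, and hairpins that lie close together are often cut from 1 transcript. Some miRNAs are made in nearly every cell, while others belong to a cell type: miR-122 to the hepatocyte, the miR-200 family to epithelia, miR-142 to blood-derived cells, and miR-143 and miR-145 to smooth muscle and other mesenchymal cells. The liver is built mainly of hepatocytes and its sinusoids are filled with blood, whereas the intestinal wall carries an epithelium with enterocytes, goblet cells and enteroendocrine cells above a layer rich in immune cells.

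Levels are CPM values, the reads of a miRNA relative to all reads of the sample that mapped to annotated miRNAs (10000 CPM are 1% of the pool), so each value is a share of the miRNA pool of its sample. The reads behind a sample, recovered from the steps between its low CPM values, ran from 2004942 to 7684530 in liver (median 4427653), from 4925942 to 15621501 in duodenum and from 3987988 to 10383400 in jejunum. Liver was the shallower side, with a median of 4427653 reads against 7467190 over the intestinal samples, although the ranges overlapped. The shallowest sample was a liver, and 3 reads were worth between 0.192 and 1.50 CPM over the 54 samples. Differences are given as liver minus the mean of the duodenum and jejunum means on the log2(CPM + 1) scale with their standard error (SE), where 1 stands for 2-fold and low miRNAs are understated. They were tested with limma over all 304 miRNAs, and a miRNA is called higher or lower where its Benjamini-Hochberg adjusted p was below 0.05. In bulk tissue, fewer cells of a type and less of a miRNA in each cell cannot be told apart.

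A set of 4 libraries that touch the results stood apart from the rest of their tissue. In the alfalfa hay liver replicate 2, miR-205, a miRNA of stratified and glandular epithelium, took 1525 CPM, against 0 to 13.0 CPM in the other 17 liver samples. The same library held 166 CPM of miR-200c against 13.1 to 37.9 in the other 17, and 475 CPM of miR-375 against 49.9 to 165, while its miR-122 (11014 CPM) lay inside the range of the others. In jejunum, the corn stover replicates 1, 2 and 6 held 8.13 to 37.7 CPM of miR-31, where the other 15 held 183 to 478, and 197 to 324 CPM of miR-196a, where the other 15 held 4.21 to 27.7. Reads on miRNAs that the tables do not list came to 221, 281 and 440 CPM in those 3 libraries and to at most 72.6 CPM in the other 33 intestinal ones. What set these libraries apart was not tested, and some values without these 4 samples are given beside the results. Of the 113 miRNAs named by rule, 112 kept their direction and their side of the threshold without them, and the 1 other passed in the same direction.

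**Figure D1:**
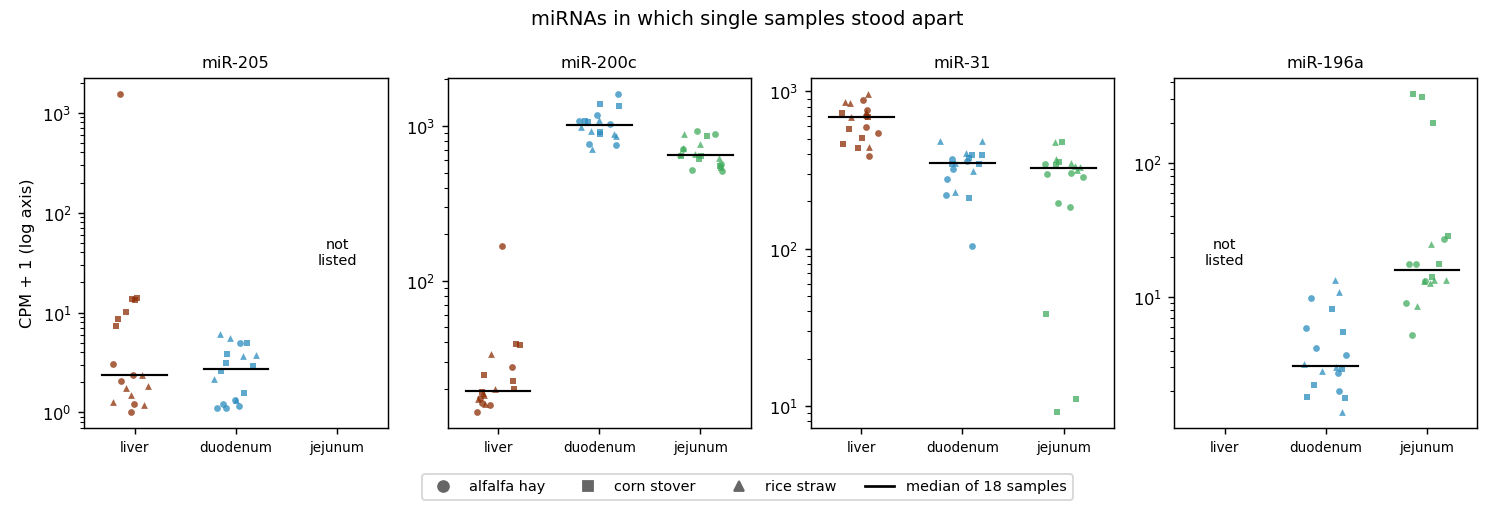
CPM + 1 (log axis) of miR-205, miR-200c, miR-31 and miR-196a in each liver, duodenum and jejunum sample where listed. miR-205 is not listed in jejunum and miR-196a is not listed in liver. Marker shapes give the diet and black lines the median of 18 samples. A single alfalfa hay liver holds miR-205 at 1525 CPM and miR-200c at 166 CPM, and 3 corn stover jejunum samples lie lowest for miR-31 (8.13 to 37.7 CPM) and highest for miR-196a (197 to 324 CPM).

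The tissue labels were checked against markers. Of the 3 tissues compared, miR-122 was listed in liver alone, at 8671 to 12721 CPM. The epithelial miR-200 family, miR-215 and miR-375 were higher in every duodenum and jejunum sample than in any liver sample. miR-192 and miR-194, often taken as intestinal miRNAs, were abundant on both sides. miR-143, the mesenchymal miRNA, took 104281 to 294801 CPM in samples labelled epithelium and 81811 to 177119 CPM in liver, and the part of cells other than epithelium in the intestinal samples was not tested.

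Most miRNAs differed between liver and small intestine. Of the 304 tested, 106 were higher in liver (34.9%) and 161 were lower (53.0%), so that 267 passed the test (87.8%) and 37 did not. A difference of at least 2-fold was found for 64 miRNAs on the higher side (21.1%) and 91 on the lower side (29.9%), together 155 (51.0%). All 18 liver samples lay above all 36 intestinal samples for 25 miRNAs (8.22%) and below them for 56 (18.4%). The median difference over all 304 was -0.36, so the typical miRNA was somewhat lower in liver. With trimmed-mean (TMM) scaling the median became -0.18 and the split 126 higher to 148 lower, and with upper-quartile scaling it became 0.09 and the split 141 to 114, so small differences depend on the scaling. All 155 miRNAs that differed by at least 2-fold kept their direction and passed the test under both scalings. The counts without overlap depend on the scaling as well. With upper-quartile scaling more miRNAs lay above the intestine in every liver sample than below it. Statements below that groups did not overlap are for CPM without further scaling. The differences below are to be read against these medians, and the counts of list members against these percentages.

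**Figure D2:**
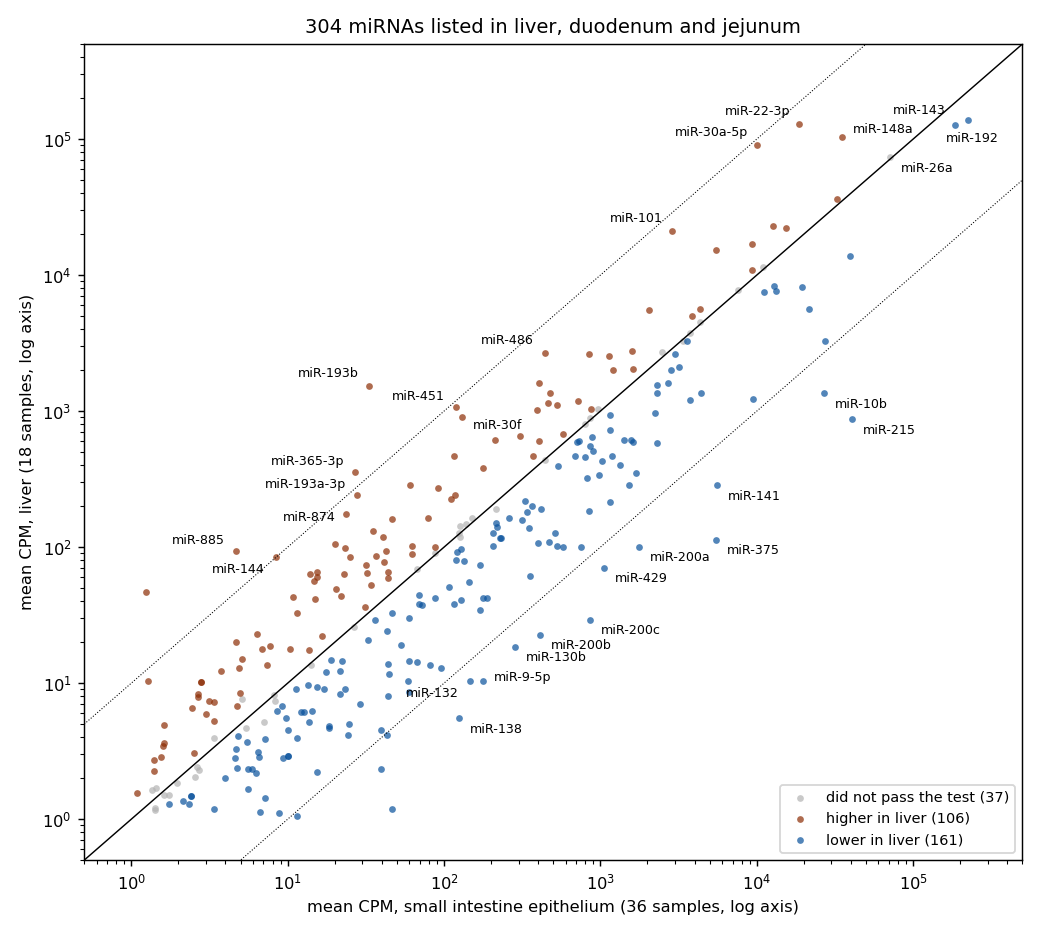
Mean CPM in liver (18 samples, vertical log axis) against mean CPM in small intestine epithelium (36 samples, horizontal log axis) for the 304 miRNAs, coloured by the test. The solid line marks equal levels and the dotted lines a 10-fold difference. 106 miRNAs were higher in liver and 161 lower, and the 12 with the largest difference on each side among those above 50 CPM are named.

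The hepatocyte miRNA miR-122 could not be tested, since no duodenum or jejunum table lists it. It is the best known liver miRNA and acts on cholesterol and fatty acid metabolism. Its level in liver was 8671, 11038 and 12721 CPM at the lowest, median and highest, with a mean of 11021 ± 1144 CPM (SD, n = 18). All unlisted miRNAs of an intestinal sample together took at most 440 CPM, which puts the lowest liver sample at least 19.7-fold above any intestinal sample, and at least 119-fold above the 33 other than the 3 jejunum libraries named above. miR-885, a second miRNA that is known from hepatocytes, was listed in all 3 tissues and ran from 61.1 to 160.1 CPM in liver (median 86.2) and from 1.03 to 9.55 CPM in the intestine (median 5.03). The groups did not overlap, and the difference was 4.11 (SE 0.15, adjusted p = 5.55e-33).

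The largest difference on the liver side belonged to miR-193b. This miRNA, which is co-transcribed with a miR-365 gene and was studied in brown fat and muscle, was at 717, 1501 and 2208 CPM in liver (lowest, median, highest) and at 20.9, 32.1 and 54.4 CPM in the intestine. Every liver sample was far above every intestinal one, with a difference of 5.47 (SE 0.09, adjusted p = 1.29e-49) and a 46.3-fold ratio of means. miR-365-3p ran from 243 to 559.7 CPM in liver and from 17.3 to 39.8 CPM in the intestine, a difference of 3.67 (SE 0.09, adjusted p = 2.9e-42). The related miR-193a-3p, at 91.8 to 502 CPM against 16.4 to 45.1 CPM, differed by 2.95 (SE 0.14, adjusted p = 4.75e-27), and the opposite strand of its hairpin, miR-193a-5p, differed by 1.26. None of these 4 overlapped between liver and intestine, beside 8.22% of all miRNAs above without overlap. The fifth member of the miR-193 and miR-365 list, miR-365-5p, was listed in liver and in neither segment, at 3.27 to 7.87 CPM. The 5 together took 0.108% to 0.31% of liver reads and 0.00652% to 0.0129% of intestinal reads.

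Several of the most abundant liver miRNAs were also among the most different. miR-22-3p ran from 85657 to 175255 CPM in liver (median 127174) and from 11279.6 to 28581 CPM in the intestine (median 18408). It was second in rank in liver and rank 12 in the intestine, with no overlap and a difference of 2.80 (SE 0.09, adjusted p = 1.1e-36). Its opposite strand miR-22-5p, far less abundant at a median of 84.4 CPM in liver and 25.3 CPM in the intestine, differed by 1.73 and did not overlap either. miR-101, which represses the histone methyltransferase EZH2, was at 13076, 22088 and 27259 CPM in liver and 1943, 2854 and 3671 CPM in the intestine. The difference was 2.88 (SE 0.07, adjusted p = 2.93e-42). miR-148a, a repressor of DNMT1 and of the LDL receptor, ran from 83368 to 120485 CPM in liver and from 18173 to 48811 CPM in the intestine, a difference of 1.62 (SE 0.08, adjusted p = 7.24e-26) with no overlap. In its family, miR-152 was also higher in liver by 1.12 and without overlap, whereas miR-148b was lower (difference -0.77, SE 0.07, adjusted p = 2.53e-16).

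The miR-30 family, whose 6 members share their first bases, was higher in liver throughout. All 6 of 6 members passed the test, beside 34.9% of all miRNAs that were higher. Their median difference was 0.82 beside -0.36 over all miRNAs, and the family took 9.86% to 15.4% of liver reads and 2.26% to 3.96% of intestinal reads. In liver most of this was miR-30a-5p, at 73550.1, 88167 and 118208 CPM in liver and 5750.0, 10049 and 16473 CPM in the intestine, a difference of 3.20 (SE 0.08, adjusted p = 2.9e-42). miR-30f, at 643 to 1326 CPM against 71.7 to 209 CPM, differed by 2.79 (SE 0.09, adjusted p = 8.84e-36). Neither overlapped. The rest of the family moved far less: miR-30e-5p differed by 0.86, miR-30c by 0.78 and miR-30d by 0.23 (SE 0.05, adjusted p = 0.000148), with 5 of 18 liver samples above the highest intestinal sample for miR-30d. Also among the 12 largest was miR-874, at 112 to 248 CPM in liver and 14.3 to 37.6 CPM in the intestine (difference 2.86, SE 0.09, adjusted p = 2.05e-36).

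**Figure D3:**
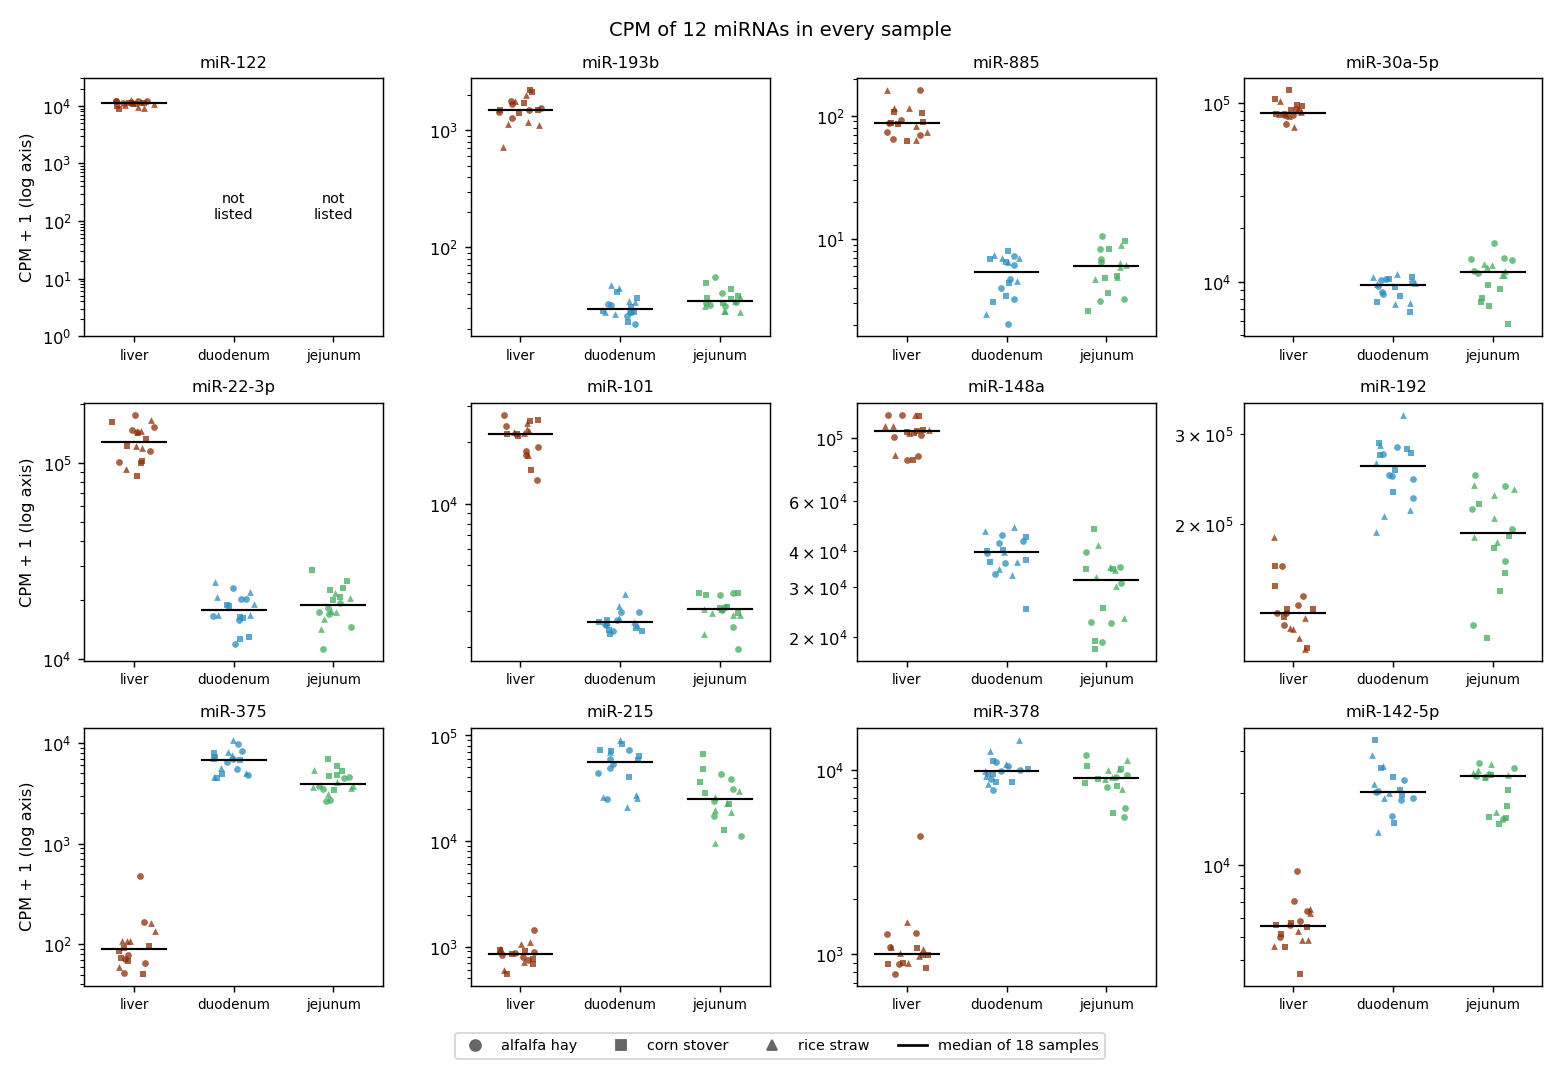
CPM + 1 (log axes, each panel with its own range) of 12 miRNAs in every liver, duodenum and jejunum sample. Marker shapes give the diet and black lines the median of 18 samples. Apart from miR-192, in which liver and intestine overlap, and miR-122, which is listed in liver alone (8671 to 12721 CPM), all liver samples lie on 1 side of all 36 intestinal samples.

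Red blood cell miRNAs were higher in liver, though here the groups overlapped. miR-451 and miR-144 are cut from neighbouring hairpins in erythroid cells, and miR-486 is abundant in the same cells. miR-451 was at 303, 989 and 2471 CPM in liver and 45.6, 99.0 and 559 CPM in the intestine, with 14 of 18 liver samples above the highest intestinal one. Differences were 3.14 for miR-451 (SE 0.20, adjusted p = 1.83e-21), 3.22 for miR-144 (SE 0.19, adjusted p = 1.09e-22) and 2.59 for miR-486 (SE 0.16, adjusted p = 4.88e-22). All 3 of 3 members were thus higher, beside 34.9% of all miRNAs that were higher. Summed, they ran from 1154 to 6661 CPM in liver, from 315 to 633 CPM in duodenum and from 280.1 to 2030.2 CPM in jejunum. These levels moved with the tissue, and their part in other differences was not tested.

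A large group on the liver side came from the DLK1-DIO3 region, an imprinted region whose miRNAs are expressed from the maternal chromosome. Of 42 names in this list, 29 were listed in some tissue and 22 could be tested. Of these, 21 were higher in liver, beside 34.9% of all miRNAs, 1 did not pass and none was lower. The median difference was 1.53, and the group took 0.494% to 1.82% of liver reads and 0.14% to 0.535% of intestinal reads. miR-127, which lies antisense to the imprinted gene RTL1, was at 3137, 4472 and 10451 CPM in liver and 841, 2019.9 and 3479 CPM in the intestine, a difference of 1.40 (SE 0.15, adjusted p = 7.68e-13). miR-411a, at 1193 to 5719 CPM against 372 to 1482 CPM, differed by 1.59 (SE 0.15, adjusted p = 3.54e-15). miR-381 differed by 1.72 and miR-410 by 1.77. Levels varied widely among the livers, and 3 of the 22 lay above the intestine in every liver sample, beside 8.22% of all miRNAs tested. Other miRNAs of the region were not listed in all 3 tissues and went both ways. miR-370 (mean 4.16 CPM), miR-433, miR-485 and miR-758 were listed in liver but in neither segment. miR-409a (mean 3.98 CPM in duodenum) and miR-323 were listed in both segments but not in liver, and miR-487a in liver and jejunum.

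miRNAs of endocrine and neural cells were lower in liver. miR-375, made in pancreatic islets, enteroendocrine cells and other gut epithelial cells, was at 49.9, 88.4 and 475 CPM in liver and 2669, 4979.6 and 10852 CPM in the intestine. The groups were far apart, with a difference of -5.76 (SE 0.15, adjusted p = 1.55e-40) and a 48.6-fold ratio of means, and the highest liver value was the alfalfa hay replicate 2. Without the 4 libraries that stood apart the difference of miR-375 was -5.84. miR-9-5p, best known from neurons, ran from 5.98 to 27.5 CPM in liver and from 103 to 298 CPM in the intestine, a difference of -4.04 (SE 0.11, adjusted p = 9.42e-40). miR-132, a target of the transcription factor CREB, ran from 4.94 to 23.5 CPM against 67.0 to 255 CPM (difference -3.73, SE 0.11, adjusted p = 3.46e-37). Outside this list, miR-138, also known from neurons, was at 0.642 to 15.5 CPM in liver and 69.6 to 218 CPM in the intestine (difference -4.44, SE 0.16, adjusted p = 2.19e-33). All 6 tested members of the list were lower in liver and none overlapped, beside 18.4% of all miRNAs below without overlap. Their median was -3.88, and miR-7, an islet and neuronal miRNA, had the difference -2.58.

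The 5 members of the miR-200 family, which repress ZEB1 and ZEB2 and so hold cells in the epithelial state, were far lower in liver. All 5 passed the test with no overlap, beside 18.4% of all miRNAs below without overlap, and the median difference was -4.22. miR-200c was at 13.1, 18.5 and 166 CPM in liver and 509, 864 and 1601 CPM in the intestine (difference -5.11, SE 0.15, adjusted p = 5.42e-38). miR-141, from the same hairpin cluster, was at 130.5 to 1038 CPM against 2566 to 10176 CPM (difference -4.42, SE 0.14, adjusted p = 8.64e-36). The other cluster gave -4.22 for miR-200a, -4.18 for miR-200b and -4.06 for miR-429. Summed, the family took 0.0247% to 0.19% of liver reads and 0.471% to 1.61% of intestinal reads. The highest liver value of each member came from the alfalfa hay replicate 2, and without the 4 libraries that stood apart the difference was -5.28 for miR-200c, -4.53 for miR-141, -4.30 for miR-200a, -4.26 for miR-200b and -4.14 for miR-429.

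The miRNAs that answer to p53 and are typical of the intestine did not move as a group. miR-215 was at 552, 859 and 1433 CPM in liver and 9656, 33793 and 91487 CPM in the intestine, a difference of -5.36 (SE 0.17, adjusted p = 1.67e-36) without overlap. It held rank 4 in the intestine and rank 61 in liver. miR-192, which differs little from miR-215 in sequence, was the most abundant miRNA on both sides, at 113678, 133989 and 188688 CPM in liver and 119672, 229920.3 and 327244 CPM in the intestine. Only 3 of 18 liver samples lay below the lowest intestinal one, and the difference was -0.69 (SE 0.07, adjusted p = 1.12e-13). miR-194, which has a copy beside each of the other two, was at 6244 to 8777 CPM in liver and 6785 to 19586 CPM in the intestine (difference -0.52, SE 0.07, adjusted p = 4.68e-09). With upper-quartile scaling miR-192 (-0.16, limma adjusted p = 0.0896) and miR-194 (0.01, adjusted p = 0.959) did not pass the test, while miR-215 did (-4.83). The alignment allowed mismatches, so reads could have passed between miR-192 and miR-215.

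miR-10a and miR-10b, encoded among the HOX genes that pattern the body axis, were lower in liver. miR-10b was at 219, 817 and 6005 CPM in liver and 9477, 19666 and 75615 CPM in the intestine, a difference of -4.67 (SE 0.25, adjusted p = 2e-25). No liver sample reached the intestine, although the spread within each tissue was wide. miR-10a was at 1516 to 8685 CPM in liver and 3468 to 95217 CPM in the intestine, so that 15 of 18 liver samples lay below the lowest intestinal one (difference -2.79, SE 0.20, adjusted p = 4.85e-19). Both were higher in jejunum than in duodenum, miR-10a by 1.69 (SE 0.24, adjusted p = 5.12e-07) and miR-10b by 1.08 (SE 0.28, adjusted p = 0.00394). The 3 corn stover jejunum libraries that stood apart held 83090 to 95217 CPM of miR-10a, where the other 15 held 26635 to 47729, and 54610 to 69678 CPM of miR-10b, where the other 15 held 16480 to 75615. Without those 3 the difference between the segments was 1.44 for miR-10a (limma adjusted p = 1.38e-05) and 0.90 for miR-10b (adjusted p = 0.0245). Without all 4 libraries the difference from liver was -2.72 for miR-10a and -4.71 for miR-10b. miR-196a, another miRNA of the HOX clusters, was not listed in liver and was at 0.384 to 12.5 CPM in duodenum.

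Immune cell miRNAs were lower in liver in each case. All 9 of 9 members passed the test, beside 53.0% of all miRNAs that were lower, with a median difference of -1.92, and the list took 1.15% to 2.21% of liver reads and 2.76% to 6.49% of intestinal reads. miR-142-5p, made in all blood-derived cells and rank 10 in the intestine, was at 3503, 5555 and 9457 CPM in liver and 13726, 21189 and 33547 CPM in the intestine (difference -1.92, SE 0.09, adjusted p = 2.17e-28), and miR-142-3p had the difference -2.43. miR-155, which rises in activated lymphocytes and macrophages, was at 59.8 to 191 CPM against 376 to 1609 CPM (difference -2.54, SE 0.11, adjusted p = 1.57e-29). miR-150, a miRNA of mature lymphocytes, differed by -2.28 with 16 of 18 liver samples below the intestine. The myeloid miR-223 differed by -1.75 with 9 of 18 below, so its groups overlapped more. miR-146a, which NF-kB induces, differed by -1.63 (SE 0.15, adjusted p = 2.12e-15).

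Muscle miRNAs were lower in liver, while endothelial and fibroblast miRNAs were nearly even. miR-143 and miR-145 are neighbours that are best known from smooth muscle, yet their differences were unlike: -0.55 for miR-143 (SE 0.09, adjusted p = 4.45e-08) and -1.98 for miR-145 (SE 0.11, adjusted p = 1.04e-24), the latter at 394, 513 and 1016 CPM in liver and 1342, 2267 and 3762 CPM in the intestine without overlap. All 4 tested muscle miRNAs of the striated list were lower in liver, beside 53.0% of all miRNAs. Among them, miR-133a was at 90.7 to 273 CPM against 136 to 432 CPM (difference -0.66) and miR-1 at 0.341 to 3.97 CPM against 5.61 to 27.2 CPM (difference -2.37). With upper-quartile scaling miR-143 (-0.02, limma adjusted p = 0.822) and miR-133a (-0.13, adjusted p = 0.238) did not pass the test, while miR-145 and miR-1 did. The endothelial miR-126-5p was at 16878 to 31163 CPM in liver and 5878 to 23402 CPM in the intestine, a difference of 0.56 (SE 0.11, adjusted p = 1.19e-05), and miR-126-3p differed by 0.40. For miR-199a-3p, miR-199a-5p and miR-214 of fibroblasts no difference passed the test without further scaling, while all 5 members of the endothelial and fibroblast list were higher in liver with TMM or upper-quartile scaling.

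Further lists, picked out of the 31 because no tested member overlapped, were lower in liver. That choice fixed the lack of overlap, so the 18.4% of all miRNAs below without overlap cannot be set against it. These lists were the 3 of the miR-378 list (median -2.59), the 3 of the miR-183 cluster, known from sensory cells (median -2.54), and miR-221 and miR-222, which repress the cell cycle inhibitor p27 (differences -2.97 and -2.42). miR-378, encoded in an intron of the PGC-1beta gene, was at 784, 1007 and 4368 CPM in liver and 5504, 9381 and 14531 CPM in the intestine (difference -3.06, SE 0.11, adjusted p = 6.51e-34). miR-130b and its neighbour miR-301b were lower by more than their relatives: miR-130b ran from 9.69 to 57.5 CPM in liver and from 75.7 to 439.5 CPM in the intestine (difference -3.87, SE 0.16, adjusted p = 4.44e-31), miR-301b had the difference -3.56, miR-301a -0.90 and miR-130a -0.25. The last of these was 0.27 in the other direction with upper-quartile scaling. miR-21-5p, a repressor of PDCD4 and rank 5 in the intestine, was at 10236, 13273 and 19667 CPM in liver and 27223, 40617 and 49577 CPM in the intestine (difference -1.52, SE 0.07, adjusted p = 7.09e-28).

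**Figure D4:**
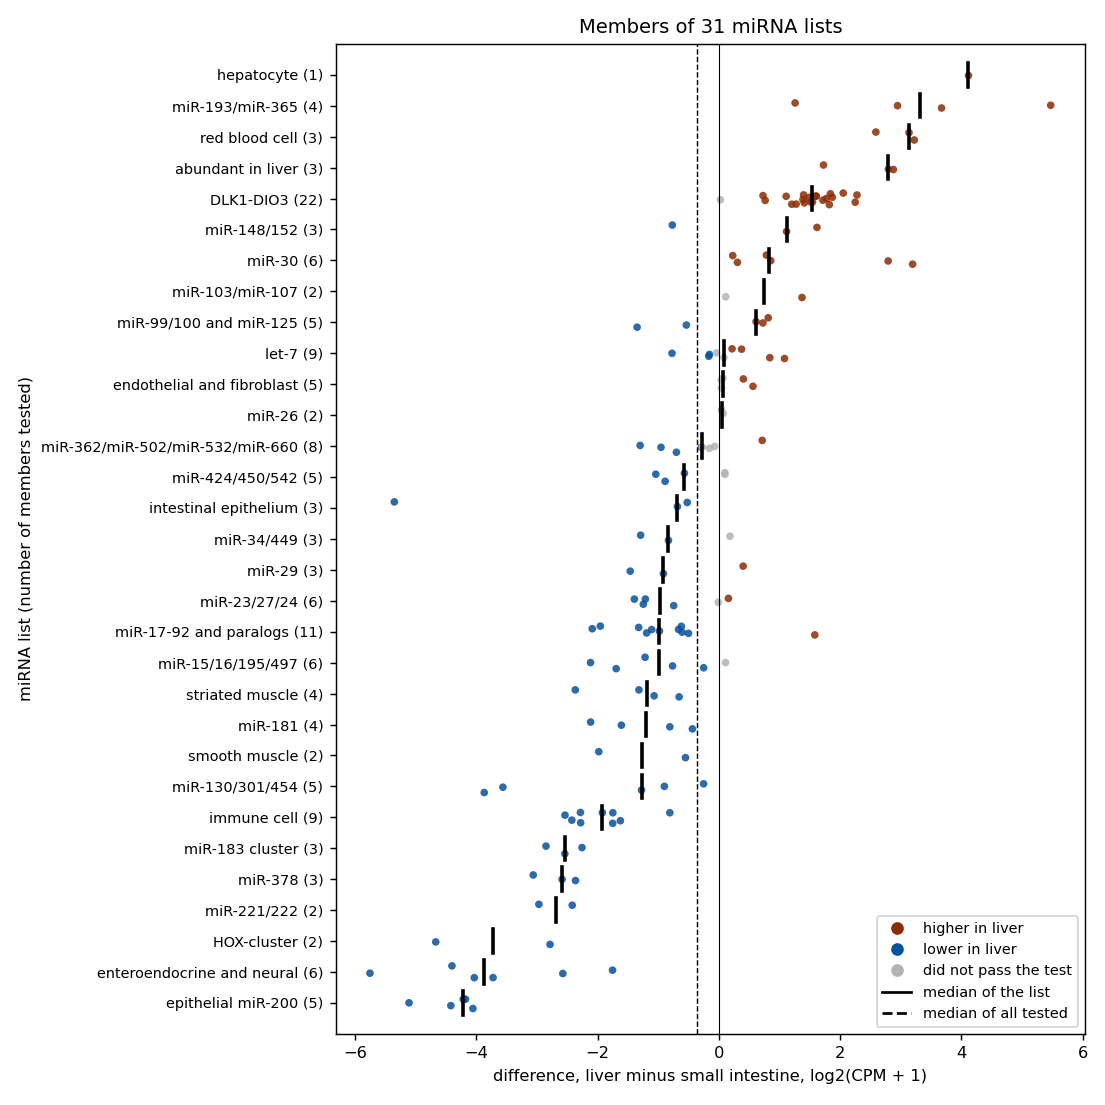
Difference between liver and small intestine on the log2(CPM + 1) scale (horizontal axis) for each tested member of 31 lists (vertical axis, number of members in parentheses). Points are members coloured by the test, solid bars the median of a list, and the dashed line the median of all miRNAs tested (-0.36). The miR-200 family (median -4.22) and the miR-193 and miR-365 group (median 3.31) hold opposite ends apart from the 1 hepatocyte miRNA, while the medians of let-7 (0.08) and miR-26 (0.06) lie near 0.

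Other families were split between the tissues. In the miR-17-92 cluster and its paralogs, 10 of 11 members were lower in liver, beside 53.0% of all miRNAs. In this list miR-92a alone was higher, at 8709, 15629 and 19651 CPM in liver and 3098, 4429 and 14544 CPM in the intestine (difference 1.58, SE 0.14, adjusted p = 4.32e-16). In the miR-29 family, known for repressing collagens, miR-29a was higher by 0.40 while miR-29c (-1.46) and miR-29b (-0.92) were lower. miR-107 was higher by 1.37 without overlap, at 737 to 1359 CPM against 277 to 578 CPM, but miR-103, its near twin in the pantothenate kinase genes, did not pass the test (difference 0.11, SE 0.06, adjusted p = 0.0949). Among the 9 let-7 members, 4 were higher, 3 lower and 2 did not pass, and let-7f was among those higher (difference 0.84). miR-16b, at 1043 to 1716 CPM against 3297 to 6301 CPM, was lower without overlap (difference -1.69), and miR-16a was lower by less (-0.77), whereas miR-15a gave 0.11 (SE 0.07, adjusted p = 0.154). miR-26a, rank 3 in the intestine at 7.12% of reads, was at 65573 to 87823 CPM in liver and 38174 to 94304 CPM in the intestine and did not pass (difference 0.07, SE 0.07, adjusted p = 0.327). These families hold near-identical members whose reads the alignment may have divided, and the weak calls among them turn on the scaling.

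The pools differed in how they were filled. The 10 most abundant miRNAs took 76.5% ± 1.30 of liver reads (SD, n = 18) and those of the intestine 70.5% ± 2.35 of its reads (SD, n = 36), with 5 names in common: miR-192, miR-143, miR-26a, miR-148a and miR-27b. Liver was filled with miR-192 (13.8% ± 1.94), miR-22-3p (12.9% ± 2.64), miR-143 (12.7% ± 2.86), miR-148a (10.4% ± 1.23) and miR-30a-5p (9.09% ± 1.04). In the intestine miR-192 (22.5% ± 4.78) and miR-143 (18.6% ± 4.41) stood above all others, followed by miR-26a, miR-215 (4.07% ± 2.22) and miR-21-5p (3.94% ± 0.597). The 106 miRNAs that were higher in liver made up 52.1% ± 3.72 of liver reads and 17.6% ± 1.69 of intestinal reads. They were selected in these same samples, so the direction of this gap follows from the selection and only its size is described.

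Liver differed from the 2 segments in much the same way. Against duodenum and against jejunum, 246 of the 304 miRNAs (80.9%) passed the test in the same direction, none passed in opposite directions, 12 passed against duodenum alone and 15 against jejunum alone. These 2 contrasts share the liver samples. Between jejunum and duodenum 73 miRNAs differed, or 59 without the 3 jejunum libraries that stood apart, with 52 in common, and for 274 miRNAs the difference between liver and intestine was larger in size than that between the segments. miR-375 averaged 6785 ± 1810 CPM in duodenum and 4236 ± 1123 CPM in jejunum (SD, n = 18 each), so its difference from liver was -6.10 in the first and -5.42 in the second. miR-215 averaged 53138 ± 21869 CPM and 28225 ± 14481 CPM, with differences of -5.83 and -4.88. miR-193b was even along the gut, with means of 30.9 ± 7.09 and 35.5 ± 7.23 CPM.

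Few of the differences between liver and intestine passed a test for varying with the diet, which does not show that the rest were even. The sign was the same within alfalfa hay, corn stover and rice straw for 264 of the 267 called miRNAs and for 154 of the 155 that differed by at least 2-fold. A test of whether the difference between liver and intestine varied with the diet (limma F test) passed for 9 miRNAs of 304 (2.96%), and for 14 with upper-quartile scaling. In all 9 the corn stover group lay further from the other 2 diets than these lay from each other. miR-423-3p had a difference of 0.61 on corn stover, 1.82 on alfalfa hay and 1.84 on rice straw (adjusted p = 0.0015). Its jejunal median was 953 CPM on corn stover and 314 CPM on rice straw, and its liver median was 795 and 1547 CPM.

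Of the others, miR-92a (1.06 on corn stover, 1.78 on alfalfa hay, 1.91 on rice straw), miR-423-5p (1.27, 2.20 and 2.29) and, on the intestinal side, miR-1 (-1.43, -3.08 and -2.59), miR-1271 (-2.20, -3.18 and -3.39), miR-99b (-0.62, -1.68 and -1.75) and miR-145 (-1.47, -2.39 and -2.09) differed less on corn stover. miR-100 (1.60, 0.45 and 0.39) and miR-30a-5p (3.58, 2.95 and 3.06) differed more. These differences pool the segments, and some came with jejunum rather than duodenum. In the same order of diets, miR-99b had medians of 725, 2275 and 1759 CPM in jejunum and 1487, 1434 and 1724 CPM in duodenum. Medians of miR-1271 were 9.24, 51.0 and 43.3 CPM against 48.0, 44.9 and 40.4 CPM. Those of miR-92a were 11571, 4513 and 4388 CPM against 3736, 4097 and 5102 CPM. For miR-423-5p the liver medians also lay apart, at 1030, 1779 and 2143 CPM. The jejunum libraries that stood apart were all from corn stover cows. Without those 3, 8 of the 9 still passed and miR-145 did not (adjusted p = 0.0694), and without all 4 libraries the 9 passed again, with miR-423-3p at 0.65 on corn stover.

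**Figure D5:**
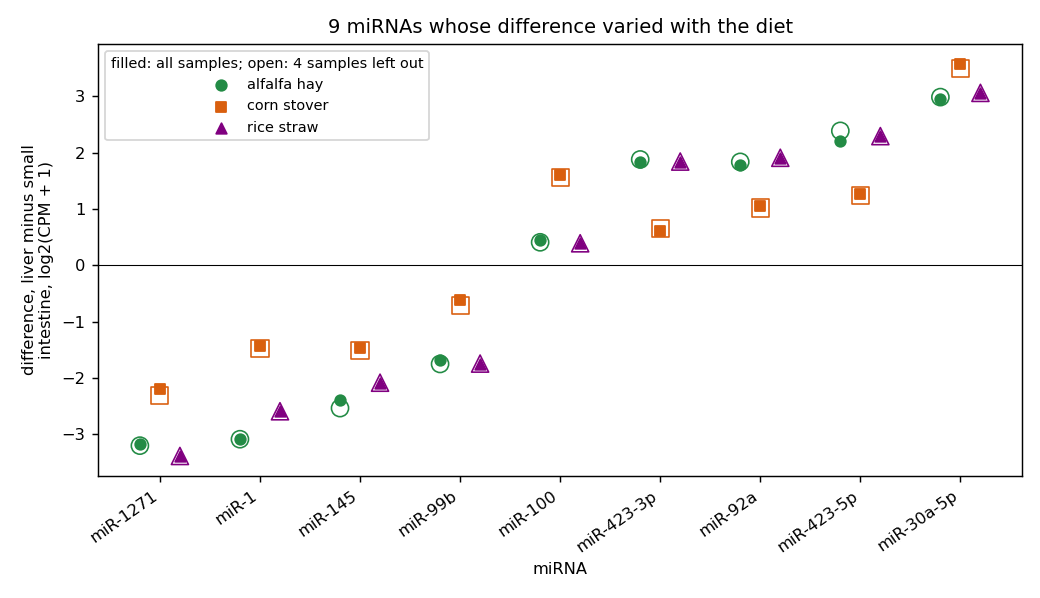
Difference between liver and small intestine on the log2(CPM + 1) scale (vertical axis) within each diet for the 9 miRNAs whose difference varied with the diet. Filled markers use all samples and open markers leave out the 4 libraries that stood apart. The corn stover marker is apart from the other 2 diets in each miRNA, as for miR-423-3p at 0.61 against 1.82 and 1.84.

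For miRNAs cut from 1 hairpin or from neighbouring hairpins, calls were compared with each other. Of all miRNAs, 34.9% were higher and 53.0% lower, but these are shares of single miRNAs. How often unrelated miRNAs would agree was not worked out, so the counts of agreement have no background beside them. Both strands of 25 hairpins were tested, and in 18 of them both passed, 17 in the same direction. The exception was miR-345, whose -3p strand was higher in liver by 0.24 and whose -5p strand was lower (-0.54). The strands differed from each other by a median of 0.49. In the RefSeq annotation of the cow genome (assembly ARS-UCD2.0), 302 of the 304 miRNAs were found by name, and 45 clusters of genes within 10 kb of each other held at least 2 tested hairpins. A miRNA with several gene copies can count in more than 1 cluster, and the pair miR-181a and miR-181b was counted more than once. All members passed in the same direction in 29 clusters, as for miR-193b with miR-365-3p, miR-144 with miR-451, miR-200a with miR-200b and miR-429, and miR-141 with miR-200c. Calls in both directions were found in 9 clusters, among them let-7e, miR-125a and miR-99b, where miR-99b was at -1.35 and let-7e at 0.37.

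Of the 61 miRNAs that at least 1 tissue does not list, 21 were listed in liver but in neither segment and 27 in duodenum and jejunum but not in liver. The other tissues of the series were left aside here, and some of these, such as miR-122 in mammary gland and miR-483 in rumen epithelium and mammary gland, are listed there too. A listed miRNA exceeded 1 CPM in at least 9 of the 18 samples of its tissue, and an unlisted one has no value here. Besides miR-122, the miRNAs of liver but neither segment with a mean of at least 5 CPM were miR-2483-3p (3.74, 30.6 and 56.3 CPM at the lowest, median and highest), miR-483 (7.35, 12.3 and 21.3 CPM), which lies in an intron of IGF2, miR-2415-3p (2.08, 6.46 and 34.9 CPM) and miR-365-5p. The other 16 averaged 0.812 to 4.16 CPM. The partner strand of the first, miR-2483-5p, was listed in all 3 tissues and is given after its values were seen: it ran from 5.43 to 88.0 CPM in liver and from 0.194 to 2.54 CPM in the intestine, without overlap (difference 4.21, SE 0.20, adjusted p = 5.23e-28).

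On the other side, 11 names not listed in liver averaged at least 5 CPM in a segment. miR-211, which lies in an intron of TRPM1, had the highest median of them in both, at 9.61, 27.6 and 63.8 CPM in duodenum and 21.0, 45.6 and 126 CPM in jejunum. miR-184 ran from 4.05 to 27.6 CPM in duodenum and from 2.86 to 14.5 CPM in jejunum. The neuronal miR-124a, whose values were those of miR-124b in every sample, had medians of 13.4 CPM in duodenum and 5.67 CPM in jejunum, and miR-129, identical in value to miR-129-5p, medians of 6.69 and 5.75 CPM. miR-212, which is transcribed with miR-132, had medians of 4.93 and 6.57 CPM, miR-20b 4.35 and 5.92 CPM, miR-2284t-3p 3.98 and 5.14 CPM, and miR-1224 5.23 and 2.48 CPM. With miR-196a these make up the 11. All unlisted miRNAs of a liver sample together took at most 82.5 CPM.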

How the data were processed

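Small RNA from liver, duodenum epithelium and jejunum epithelium was sequenced. The authors removed low-quality reads with CASAVA 1.8, trimmed adaptors and aligned reads to bovine miRBase precursors with sRNAbench, which allows mismatches and multiple mappings, so near-identical miRNAs can share reads. They deposited CPM per miRNA, although their data description speaks of raw counts. Each tissue's files list only the miRNAs above 1 CPM in at least 9 of its 18 samples. Groups came from the labels.

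Here, log2(CPM + 1) was fitted with limma 3.58.1 (lmFit, eBayes with trend) in R 4.3.3, with a mean per tissue. Liver was contrasted with the mean of duodenum and jejunum, p-values were two-sided and Benjamini-Hochberg adjusted over 304 miRNAs, and the threshold was 0.05. All values were whole reads within 0.02 of a read, and the recovered reads were used for depth and for edgeR 4.0.16. No pair of samples was identical. The fit was tested on simulated data. Tables used Python 3.11.15, pandas 2.3.3 and numpy 2.4.6, and figures matplotlib 3.10.9. The 18 samples of a tissue match the 18 cows in number, although no label names the cow. If every sample of a tissue came from a different cow, the spread behind the p-values is that between cows. The fit treats all samples as independent, although liver and both segments came from the same cows. With the segments averaged per replicate number, 104 miRNAs were higher and 161 lower. Floors cover counting error only.

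miRNAs were named as the 12 largest differences in each direction with a mean of at least 50 CPM on the higher side, the 10 most abundant on each side, listed cell type markers, up to 4 members of each of 31 lists, unlisted miRNAs with a mean of at least 5 CPM, and hairpin or cluster partners of the first set. A partner by shared seed was not used here, and no sequence is printed, since no sequence file was at hand. The members and lists were chosen with earlier results of these data known. Alternatives were 2 pseudocounts (0.1 and 5 CPM), a mean of at least 10 CPM, TMM and upper-quartile scaling, a replicate block, diet as a covariate, each segment and diet alone, the segments averaged per number, edgeR, and, chosen after seeing the data, leaving out the 4 libraries that stood apart (the 3 from jejunum also between the segments).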

Additional observations from a re-analysis of the deposited data

Results flagged for a closer look

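In groups of 6 samples (a tissue and diet), the highest or lowest sample of a miRNA was compared with the rest by its gap relative to the range of log2(CPM + 1), over the 24 miRNAs with the largest differences and 216 groups. In 19 groups a sample stood away from the other 5, where chance gives about 1 in 20 groups, or 10.8. That number takes the groups as independent, but 1 library enters a group for every miRNA, so no excess is read from it. Of the 19, 6 came from the alfalfa hay liver replicate 2: miR-215 at 1433 CPM against 744 to 882 in the other 5, miR-200a at 334 against 53.7 to 75.1, miR-200b at 65.2 against 12.3 to 19.8, miR-200c at 166 against 13.1 to 26.5, miR-429 at 293 against 35.4 to 50.5, and miR-30a-5p at 75984 against 85913 to 92174. Each lay toward the intestinal level, and each remained on the liver side of all intestinal samples. The cause was not tested.

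Another 3 came from the rice straw liver replicate 2, with miR-10b at 2753 CPM (others 329.7 to 701), miR-9-5p at 27.5 CPM (others 6.90 to 11.0) and miR-101 at 17390 CPM (others 22311 to 24794). Other liver samples stood apart once each: miR-101 at 14583 CPM in corn stover replicate 5, miR-30f at 1326 CPM in alfalfa hay replicate 1, miR-200c at 32.4 CPM in rice straw replicate 1 and miR-132 at 6.77 CPM in rice straw replicate 6. In duodenum they were miR-193a-3p at 16.4 CPM in corn stover replicate 6 and miR-9-5p at 137 CPM in rice straw replicate 4. In jejunum they were miR-144 at 43.0 CPM in corn stover replicate 4, miR-101 at 2311 CPM in rice straw replicate 2, miR-200c at 864 CPM in corn stover replicate 2 and miR-10b at 64189 CPM in rice straw replicate 5.

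The difference between liver and intestine varied with the diet in 9 miRNAs by limma's F test with Benjamini-Hochberg adjustment. The adjusted p was 0.0015 for miR-1, miR-423-3p and miR-92a, 0.00235 for miR-30a-5p, miR-100 and miR-99b, 0.00394 for miR-1271, 0.00544 for miR-423-5p and 0.026 for miR-145. An unadjusted p below 0.05 was found for 52 of the 304.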

How the results depend on the processing

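The counts of higher and lower miRNAs stayed within 1.5 times their values of 106 and 161 under all alternatives. TMM gave 126 and 148, upper-quartile scaling 141 and 114, and edgeR's quasi-likelihood test on recovered reads 127 and 147. All 106 higher calls were shared by these 3, and 6 lower calls turned higher under upper-quartile scaling. Among named miRNAs, signs turned for let-7g (0.17 with TMM, 0.49 with upper-quartile, 0.16 with edgeR), let-7i (0.037, 0.36 and 0.055) and, under upper-quartile scaling, miR-130a (0.27), miR-181b (0.089), miR-194 (0.0052), miR-532 (0.37) and miR-660 (0.24), where the shifted median of all miRNAs is by construction part of the value. Of 113 named miRNAs, 84 kept direction and call under every alternative, out of 17, that gave them a value; the filter at 10 CPM gave one for 106. miRNAs with every liver sample above the intestine numbered 39 with TMM, 51 with upper-quartile scaling, and 52, 46 and 48 within alfalfa hay, corn stover and rice straw; those below numbered 37 with upper-quartile scaling, 91 within alfalfa hay and 104 within rice straw, since fewer samples overlap less. Diet-dependent miRNAs numbered 14 with upper-quartile scaling. The replicate block gave 105 higher, 160 lower and 15 diet-dependent miRNAs. Same-numbered samples correlated at -0.11 to 0.22 between liver and duodenum, -0.21 to 0.37 between liver and jejunum and -0.34 to 0.59 between the segments, with the best match to the own number in 2, 3 and 7 of 18. Between the segments 14 of 18 exceeded 0.1 (median 0.19), but not every pair did and no label joins the numbers, so pairing was not taken as given. Without the 4 libraries that stood apart, 104 were higher and 162 lower. The shallowest sample limits detection to about 1.50 CPM.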

Other observations

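miR-205, listed in liver and duodenum but not in jejunum, was higher in all corn stover livers than in the rice straw livers and 5 alfalfa hay livers. It was at 6.24, 10.8 and 13.0 CPM (lowest, median, highest of 6) on corn stover and at 0.198, 0.619 and 1.36 CPM on rice straw. On alfalfa hay it was at most 2.05 CPM in 5 samples, beside the library at 1525 CPM. In duodenum it ran from 0.099 to 5.07 CPM. The pattern was noticed in the values and was not tested, and most of these levels stand for few reads.

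miR-31, which is abundant in many epithelia and was named after its values were seen, was at 389.6, 687 and 957 CPM in liver and 8.13, 335 and 484 CPM in the intestine. The difference was 1.36 (SE 0.30, limma adjusted p = 3.56e-05) with all samples and 0.97 without the 4 libraries that stood apart, and 14 of 18 liver samples lay above the highest intestinal one. miR-153, a neuronal miRNA, was at 0 to 3.30 CPM in liver and 23.8 to 107 CPM in the intestine.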
